A study of Mus musculus with 8 samples.

Results

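Short contacts within one gene were described in mouse liver chromatin bound by RNA polymerase II (Pol II). A contact was a paired-end tag (PET), a pair of short reads from both sides of one ligated DNA molecule. Its ends lay on one chromosome, 8 to 100 kb apart, and both fell inside the same protein-coding gene or within 2.5 kb of it. Of 2753554 PETs in the series, 2751289 had both ends on nuclear chromosomes and 3075 were 8 to 100 kb apart. Of these, 1149 lay within one gene and 1926 did not. The rule used distance and gene annotation only.

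The data came from ChIA-PET, in which crosslinked chromatin is pulled down with an antibody (here 8WG16, against Pol II) and DNA ends held in one complex are joined through a linker. The livers were from wild type C57BL/6 mice aged 3 to 6 months, kept in 12 hours of light and 12 of darkness with free access to food, and chromatin from 3 to 7 livers was pooled. The 8 libraries were taken at ZT06 or ZT18, hours after lights on, 4 at each time. They formed 3 experiments, of which 1 and 3 used dual crosslinking (1.5 mM EGS plus formaldehyde) and 2 used formaldehyde only. The deposited table names the experiment of each PET but neither its library nor its time point, so day and night could not be compared. Each experiment is a pool with no spread between replicates, and intervals are 95% and cover counting error only. The tests count PETs, not animals.

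Pol II begins transcription at a gene's promoter, moves through the gene body and is released beyond the gene's end. Contacts within a gene can join the promoter to intronic regulatory elements, or the start of the gene to its end, an arrangement known as a gene loop. Neighbouring chromatin also meets often through its own flexibility, so any pair of nearby points is joined more often than a distant pair.

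The promoters of 5 genes are shown first, because contacts in these genes repeatedly had an end near the start and came from more than 1 experiment. Each sequence is the 250 bases before a RefSeq start, 5′ to 3′ on the gene's strand, on GRCm38.p6. Sdc4 is at chr2:164443189-164443438 on the minus strand and Adk at chr14:21075902-21076151 on the plus strand. Slc29a1 is at chr17:45599619-45599868 and Myh9 at chr15:77842176-77842425, both on the minus strand. Hnf4a is at chr2:163546905-163547154 on the plus strand, before the start listed at 163547155, which lies inside the annotated gene. Capitals mark matches, on either strand, to 4 short motifs. The TATA box was searched as TATAAA and the E-box as CACGTG. The GC box was searched as GGGCGG, and the last motif, the CCAAT box, by its 5 letters. No motif contains another.
Sdc4: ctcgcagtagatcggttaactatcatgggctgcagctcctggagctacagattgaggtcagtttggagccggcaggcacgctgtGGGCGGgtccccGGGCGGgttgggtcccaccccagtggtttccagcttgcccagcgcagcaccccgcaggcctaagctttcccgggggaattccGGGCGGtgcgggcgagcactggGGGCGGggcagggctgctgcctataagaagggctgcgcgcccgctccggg
Adk: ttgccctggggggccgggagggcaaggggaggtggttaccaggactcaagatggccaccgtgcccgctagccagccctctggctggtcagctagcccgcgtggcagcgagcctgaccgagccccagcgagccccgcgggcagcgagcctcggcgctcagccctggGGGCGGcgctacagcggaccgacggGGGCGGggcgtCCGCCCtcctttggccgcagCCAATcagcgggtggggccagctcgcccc
Slc29a1: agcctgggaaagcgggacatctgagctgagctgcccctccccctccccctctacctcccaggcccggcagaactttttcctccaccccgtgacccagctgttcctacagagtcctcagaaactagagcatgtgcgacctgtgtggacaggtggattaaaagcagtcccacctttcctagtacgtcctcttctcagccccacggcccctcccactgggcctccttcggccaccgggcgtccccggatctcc
Myh9: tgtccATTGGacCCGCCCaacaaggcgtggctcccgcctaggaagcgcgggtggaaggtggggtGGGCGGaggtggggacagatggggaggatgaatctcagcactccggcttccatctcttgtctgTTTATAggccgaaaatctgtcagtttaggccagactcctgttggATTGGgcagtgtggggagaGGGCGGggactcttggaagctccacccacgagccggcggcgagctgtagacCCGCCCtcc
Hnf4a: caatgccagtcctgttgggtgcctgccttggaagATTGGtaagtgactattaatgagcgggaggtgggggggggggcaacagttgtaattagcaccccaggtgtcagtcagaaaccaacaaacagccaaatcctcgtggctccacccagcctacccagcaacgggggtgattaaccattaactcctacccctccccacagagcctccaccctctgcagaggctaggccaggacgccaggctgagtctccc

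Sdc4, Adk and Myh9 each had 3 contacts with an end within 2.5 kb of the printed start, and Slc29a1 and Hnf4a each had 2. Sdc4 and Myh9 each held 4 GC boxes in this window and Adk held 3, while Slc29a1 and Hnf4a held none. Of the 5, only Myh9 had a match to the TATA box, on the opposite strand, and none had the E-box, the sequence that CLOCK and BMAL1 bind. A match is a run of letters and not a measured binding site.

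Over all genes, 303 RefSeq starts, 1 for each gene, had a contact end within 2.5 kb. Their median GC content was 63.2%, against 55.6% for all 21262 listed starts of 17491 protein-coding genes. A GC box was found in 69.3% of them against 42.6%, and a CG dinucleotide occurred a median of 18 times against 10. A TATA box was found in 4.62% (14 starts) against 11.6%, an E-box in 9.57% (29 starts) against 6.63%, and a CCAAT box in 36.0% against 35.4%. The starts reached by contacts were thus richer in GC, and the share with a CCAAT box differed little. They were 1 chosen start for each gene, while the full set holds several starts of some genes and genes of every length. The 2 sets were not matched for gene length or for the density of PETs over the gene. Whether base composition affected which ends were captured was not tested.

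The number of contacts differed widely between experiments. Experiment 1 held 255 within-gene contacts among 474466 nuclear PETs, a rate of 537 for every 1000000. Experiment 2 held 142 among 1438852, a rate of 98.7, and experiment 3 held 752 among 837971, a rate of 897. The single-crosslinked experiment had the most PETs and the fewest contacts. The protocol and the experiment cannot be told apart here, because only 1 pool was singly crosslinked.

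Within-gene contacts were set against shuffled partners, in which each first end was paired with each second end of the same experiment and linker. Experiment 1 had 34.4 times the shuffled number (30.3 to 38.9), experiment 2 had 4.71 times (3.97 to 5.55) and experiment 3 had 45.9 times (42.7 to 49.3). Contacts of the same distance that were not within one gene had ratios of 19.4, 3.37 and 28.2. Both kinds of contact therefore exceeded shuffled pairing, and the within-gene ratio was the higher in each experiment over the whole range.

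The difference lay at the shortest distances. Between 8 and 20 kb the within-gene ratio was 80.3 in experiment 1 (68.0 to 94.3), against 44.7 (37.6 to 52.7) for contacts not within one gene, which include those between genes. In experiment 3 it was 113 (103 to 125) against 78.3 (70.4 to 86.8), and in experiment 2 it was 11.3 (8.73 to 14.4) against 8.80 (6.91 to 11.05). The intervals were apart in the dual-crosslinked experiments and overlapped in experiment 2. Between 20 and 50 kb the ratios were 29.2, 4.35 and 40.7 within one gene and 24.7, 3.18 and 35.1 for the rest, with overlapping intervals. Between 50 and 100 kb they were 8.89, 2.07 and 13.5 within one gene, below the 10.2, 2.43 and 15.3 of the rest, again with overlapping intervals.

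**Figure D1:**
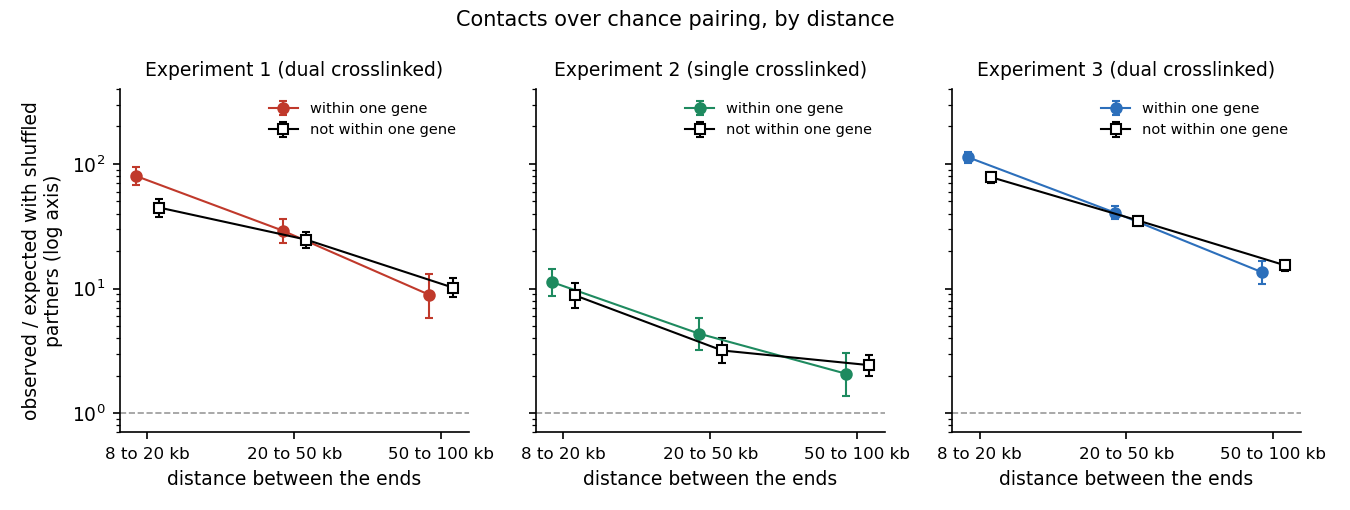
Observed contacts divided by the number expected with shuffled partners (log axis) in 3 distance classes, for contacts within one gene (filled circles) and not within one gene (open squares), with 95% counting intervals; the dashed line is a ratio of 1. At 8 to 20 kb the within-gene points are the higher, and at 50 to 100 kb they are the lower.

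The share of contacts that lay within one gene gives the same comparison with fewer assumptions about depth. In experiment 1 it was 35.7% (32.2 to 39.4%). In experiment 2 it was 35.8% (31.0 to 40.7%), and experiment 3 had 38.3% (36.1 to 40.5%). Among shuffled pairings 8 to 100 kb apart the shares were 23.9%, 28.5% and 27.6%. Contacts are shorter than shuffled pairings, and a short pair falls within a gene more easily. With shuffled pairings weighted to the observed distances, the expected shares were 29.9%, 33.0% and 34.7%. A further control used only PETs 8 to 100 kb apart. It gave each first end the offsets of all other such PETs of the same experiment and chromosome, which gave 31.2%, 33.8% and 33.1%. Relative to the distance-weighted share, the observed share was 1.19 times as large in experiment 1 (1.08 to 1.31). It was 1.09 times as large in experiment 2 (0.942 to 1.24), and 1.10 times (1.04 to 1.17) in experiment 3. Much of the rise over shuffled pairing thus went with distance, and a smaller excess was left in the dual-crosslinked experiments. In experiment 2 no excess was detectable at this depth.

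Within-gene contacts were found in 899 of 21883 protein-coding genes (4.11%). Of the 14975 genes longer than 8 kb, 891 held one (5.95%). Most of these genes, 731, had a single contact after PETs within 10 bp of each other at both ends were merged, which left 1139 contacts. There were 120 genes with 2, 36 with 3 and 12 with 4 or more. Contacts from at least 2 experiments were found in 87 genes, and contacts from all 3 in 5: Adk, Epas1, Magi1, Prkce and Rbfox2. A contact was counted for the shortest gene that held both ends, and 1142 of the 1149 were held by exactly 1 gene.

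The genes that held contacts were long. Their median length, counted once per contact, was 98.9 kb (88.2 to 105 kb; quartiles 42.5 and 182 kb), against 17.2 kb for all protein-coding genes and 30.1 kb for those over 8 kb. Shuffled pairings fell in still longer genes, with a median of 263 kb (quartiles 117 and 557 kb). By experiment, the medians were 71.4, 158 and 98.2 kb for contacts and 206, 306 and 214 kb for shuffled pairings. The ends were a median of 18.4 kb apart and spanned a median of 24.9% of the gene. Contacts thus lay in genes longer than most, yet shorter than those that random pairing of ends would reach.

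**Figure D2:**
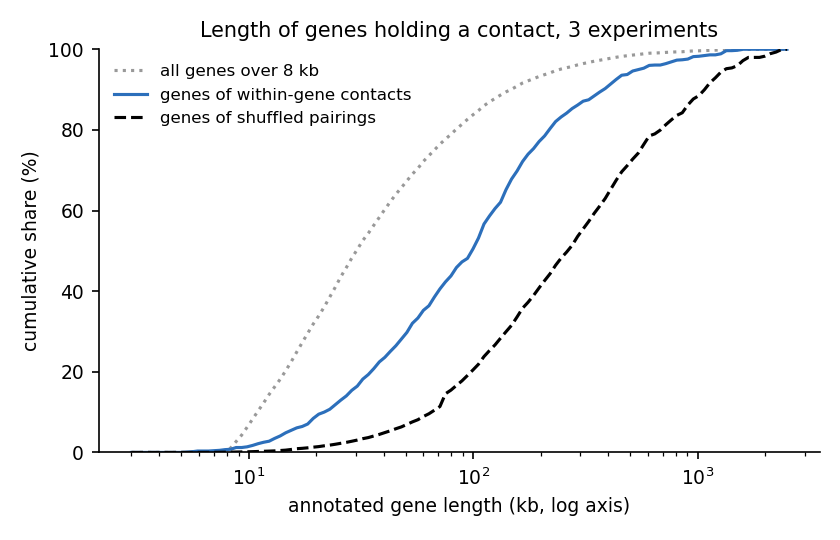
Cumulative share (%) of genes up to a given annotated length (kb, log axis) for genes over 8 kb, for within-gene contacts (each contact counted once) and for shuffled within-gene pairings, 3 experiments combined. The curve of the contacts, with a median of 98.9 kb, lies between that of all genes (30.1 kb) and that of shuffled pairings (263 kb).

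Since long genes hold more widely spaced pairs, lengths were compared again at 8 to 20 kb only. In experiment 3 the ratio to shuffled partners was 247 (197 to 305) in genes of 8 to 25 kb, 171 in genes of 25 to 50 kb, 106 at 50 to 100 kb and 113 at 100 to 200 kb. It was 70.2 at 200 to 500 kb and 29.9 (16.7 to 49.3) in genes over 500 kb. In experiment 1 the ratio was 95.1 (67.6 to 130) in genes of 8 to 25 kb, highest at 130 in those of 25 to 50 kb, and 15.9 (4.32 to 40.6) in genes over 500 kb. In experiment 2 it was 26.3 (10.6 to 54.2) in the shortest class and 5.37 (2.16 to 11.1) in the longest. In each experiment the longest genes had the lowest ratio, and the intervals of experiment 2's shortest and longest classes overlapped slightly.

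The density of PETs at most 8 kb apart, which are not contacts by the rule used, served as a separate measure of captured Pol II chromatin over each gene. It is relative to the nuclear mean of 1. Genes over 8 kb with a contact had a median density of 1.92 (quartiles 1.27 and 3.44), and those without had 1.40 (quartiles 0.830 and 2.497). In experiment 3, the ratio at 8 to 20 kb was 68.4, 41.1, 78.7, 130 and 249 in 5 equal classes of genes from low to high density. In experiment 1 it was 26.4, 74.7, 183 and 102 in the 4 upper classes, with 0 contacts in the lowest. In experiment 2 it was 31.1, 8.22, 9.81, 17.5 and 9.79, without an order from low to high. Density also goes with how many ends are captured, and gene length and density were not tested together.

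The markers of hepatocytes, the main cell type of liver, were dense in these short PETs, with 8 of 8 above the nuclear mean in each experiment and medians of 96.7, 17.9 and 18.2. Of 4 neuron markers, 0, 3 and 1 were above the mean, with medians of 0.761, 1.16 and 0.949. Medians of 4 genes each were 0, 1.33 and 0.588 for Kupffer cells and 2.14, 0.526 and 2.24 for endothelial cells, and 0.836, 1.03 and 2.48 for stellate cells. For cholangiocytes they were 4.31, 0 and 2.09. Hepatocyte markers held 2 contacts in all and endothelial markers 3, and the other 4 lists held 0. The part of these other cells in the contacts was not tested.

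Where the ends lay was examined in the 896 contacts of genes whose strand is given by a listed start. An end lay within 2.5 kb of a start in 100 of 191 contacts of experiment 1 (52.4%, 45.0 to 59.6%). The same held for 19 of 112 contacts of experiment 2 (16.96%, 10.53 to 25.2%) and 235 of 593 of experiment 3 (39.6%, 35.7 to 43.7%). Shuffled within-gene pairings gave 21.5%, 7.98% and 15.3%, and permuted offsets gave 36.4%, 14.7% and 30.1%. The shares were above both controls in experiments 1 and 3, beyond counting error. In experiment 2 the share was above shuffled pairings, and its interval held the value of permuted offsets. Permuted offsets keep only the first end of a contact and place the partner wherever the offset falls, whether or not ends are captured there. How far this lowers their share at starts was not tested.

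Contacts that joined the start of a gene to its end, the gene loop arrangement, were fewer. There were 12.0% of them in experiment 1, 1.79% in experiment 2 and 9.78% in experiment 3, against 5.01%, 0.824% and 2.12% in shuffled pairings. Contacts with both ends in the gene body, away from start and end, made up 40.3%, 72.3% and 53.0%, against 72.2%, 87.6% and 78.8%. A start joined to another start of the same gene in 2, 0 and 10 contacts. Contacts from a start to the body made up 39.3%, 15.2% and 28.2%, against 16.0%, 7.04% and 12.9%. In experiment 1 they were thus about as frequent as contacts between body positions (75 and 77), and in experiments 2 and 3 the latter were the largest class.

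**Figure D3:**
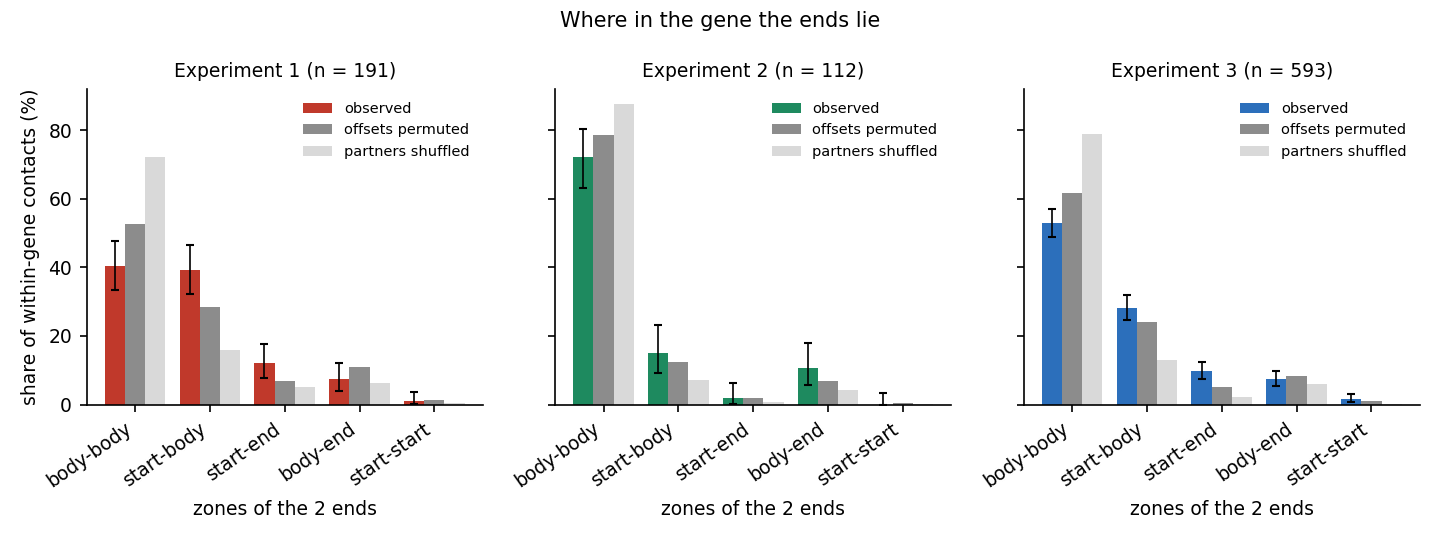
Share (%) of within-gene contacts by the zones of their 2 ends (start and end: within 2.5 kb of a listed start or of the gene's end; body: the rest), with 95% counting intervals, beside permuted offsets and shuffled partners. Contacts with an end at a start are more frequent, and contacts between body positions less frequent, than in shuffled pairings.

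Shuffled pairings lie in longer genes and are longer themselves, so the zones were compared once more within the same gene and at the same distance. For each contact, the comparison took all pairs of ends of between-chromosome PETs in that gene and experiment whose distance was within 10% of its own, and contacts with at least 10 such pairs were kept. In experiment 3 an end was near a start in 38.4% of 575 contacts (34.4 to 42.5%) against 29.7%. In experiment 1 it was 46.5% of 157 (38.5 to 54.6%) against 41.7%, and in experiment 2 it was 16.2% of 111 (9.90 to 24.4%) against 15.3%. The excess at starts was thus seen in the contacts kept in experiment 3, and was not detectable in those of the other two. The need for 10 pairs left out 34 contacts of experiment 1, of which 27 had an end near a start, and 18 of experiment 3, of which 14 did. The comparison in experiment 1 therefore says little of the contacts at starts that were left out.

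Among the contacts kept, the joining of start and end showed no detectable excess. It made up 8.28% against 8.50% in experiment 1, 0.901% against 1.04% in experiment 2 and 8.17% (6.07 to 10.7%) against 7.36% in experiment 3. An end near the gene's end was found in 15.3%, 11.7% and 15.3%, against 16.2%, 9.91% and 16.8%. The contacts kept were also not the same set: 13 of 23 start-to-end contacts were kept in experiment 1, 1 of 2 in experiment 2 and 47 of 58 in experiment 3. In experiment 1 the observed share was 8.28% among contacts kept and 12.0% before. The expected share also differed, with 8.50% for the contacts kept and 5.01% in shuffled pairings. No expected share was obtained for the contacts left out, so their part in the lower ratio was not tested.

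Each gene was also divided into 10 equal parts. Contact ends in the part at the start made up 23.8%, 13.4% and 19.7% in experiments 1, 2 and 3. Shuffled pairings had 14.7%, 9.26% and 12.0% there. The last part held 13.1%, 13.4% and 12.4%, against 11.1%, 9.41% and 10.4%. Part 6 of 10, just past the middle, held 7.07%, 8.93% and 7.08%, against 9.68%, 10.8% and 10.3%. The share in the part at the start was thus above shuffled pairings in each experiment and that in part 6 below. In experiment 2, parts 7 and 8 were also above, with 12.1% (27 ends) against 10.7% and 12.9% (29 ends) against 10.4%. No interval was calculated for these shares, and the 2 ends of a contact are not independent. Shuffled pairings also lay in longer genes, where the 2.5 kb margin counted in the first and last parts is a smaller share of the gene.

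**Figure D4:**
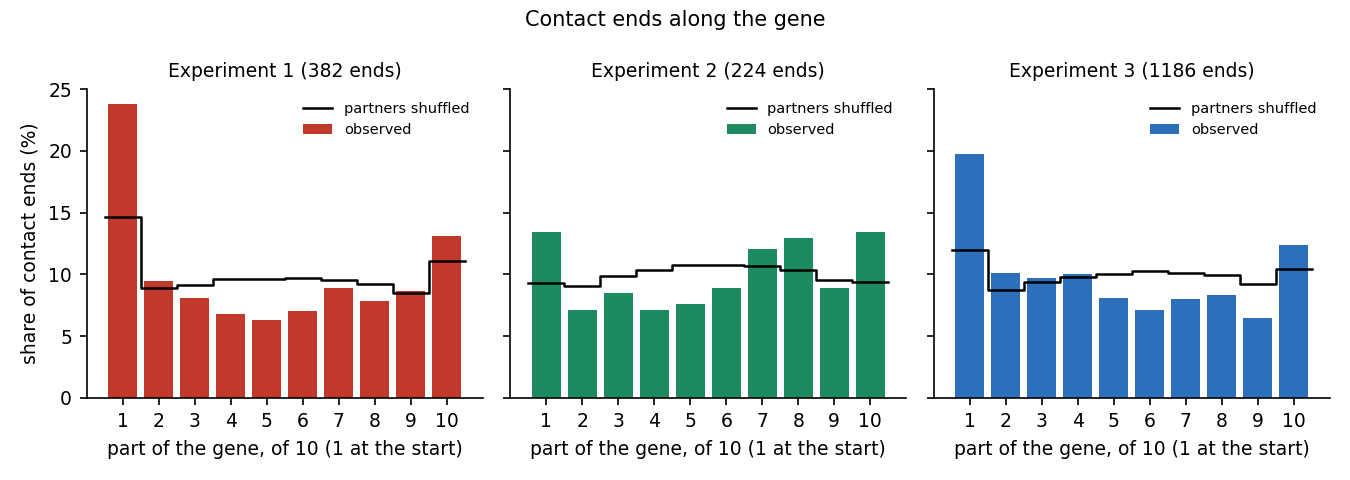
Share (%) of contact ends in each of 10 equal parts of the gene from its start, for contacts in genes with a known strand (bars), beside shuffled within-gene pairings (black line). Ends up to 2.5 kb outside the gene are counted in part 1 or part 10. Part 1 holds 23.8%, 13.4% and 19.7% of ends in experiments 1, 2 and 3, above the line in each.

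A contact with one end at a gene boundary can run into the gene or away from it. Among contacts 8 to 100 kb apart with 1 end near a boundary and no longer than the gene, the partner lay inward in 98 and outward in 66 in experiment 1 (59.8% inward; two-sided exact sign test over PETs, adjusted p = 0.0229). In experiment 3 there were 187 inward and 142 outward (56.8%; exact sign test, adjusted p = 0.0229), and in experiment 2 there were 22 and 17 (56.4%; exact sign test, adjusted p = 0.522). Adjustment was by Benjamini-Hochberg over 3 experiments. In shuffled pairings the inward share was 52.3%, 51.8% and 52.2%, all above an even split, so the test against an even split overstates the difference from shuffled pairing. The interval of experiment 1 (51.8 to 67.3%) and that of experiment 3 (51.3 to 62.3%) each held the shuffled value. With permuted offsets the inward share was 49.2%, 51.4% and 50.4%, which lay below the intervals of experiments 1 and 3 and inside that of experiment 2.

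At gene starts alone the partner was inward in 46 of 94 contacts of experiment 1, 10 of 21 of experiment 2 and 118 of 207 of experiment 3 (exact sign tests, adjusted p = 1, 1 and 0.154). At gene ends it was inward in 21 of 30, 8 of 10 and 31 of 51 (exact sign tests, adjusted p = 0.128, 0.161 and 0.161). In genes without a known strand, there were 31 inward and 9 outward in experiment 1, 4 and 4 in experiment 2 and 38 and 33 in experiment 3 (exact sign tests, adjusted p = 0.00204, 1 and 0.953). Contacts from a start thus showed no detectable preference for the gene's own body over the same distance upstream.

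Genes with several contacts in more than 1 experiment were then examined singly. There were 32 with at least 3 contacts in at least 2 experiments, and the shuffled expectation of each was below 1 contact. They were chosen for their number of contacts. Among all 899 genes with a contact, only 1 held fewer than its shuffled expectation, and within-gene contacts as a whole exceeded shuffled pairing in each experiment. An excess over this expectation therefore does not by itself set a gene apart. Mtss1, which encodes a protein that binds actin and membranes, had the most, with 1 contact in experiment 1 and 7 in experiment 3. They were 13.6 to 63.6 kb long and lay across the gene of 143 kb at chr15:58941234-59083956. Its shuffled expectation was 0.0257.

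Hnf4a encodes the nuclear receptor HNF4α, a main regulator of hepatocyte genes, and lies at chr2:163506811-163572907. It had 1 contact in experiment 1 and 5 in experiment 3, against 0.0163 expected with shuffled partners. The limit given above for genes chosen by their contacts applies to Hnf4a as well. The contact of experiment 1 joined 163540270 with 163549564. Those of experiment 3 joined 163528749 with 163557245, 163535797 with 163550300, 163539228 with 163575358, 163540019 with 163558068, and 163547739 with 163564332. In 3 of the 6 the upstream end lay 32.4, 33.2 and 33.5 kb from the annotated start, ahead of the start whose promoter is printed above. All 6 lay more than 21.9 kb from the annotated start, and none reached it.

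Sdc4, for the cell surface proteoglycan syndecan-4, is a short gene of 18.9 kb. Experiment 1 joined points 2.04 and 14.1 kb from its start. Experiment 3 joined −0.401 kb with 14.4 kb, 2.42 kb with 21.2 kb and 6.05 kb with 20.1 kb. All 4 contacts thus linked the upstream part of the annotated gene with its last part or the region just past it.

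Abca1 encodes the exporter of cholesterol to lipoproteins. Both of its contacts in experiment 1 began near the start, from 1.14 to 21.6 kb and from 2.29 to 10.7 kb, while the 3 of experiment 3 began at 13.2, 31.1 and 85.7 kb. Jak1, a cytokine receptor kinase, had contacts from 0.848 to 27.2 kb in experiment 1 and from 0.508 to 15.3 kb, 4.16 to 14.9 kb and 30.4 to 68.2 kb in experiment 3. Thus 3 of the 4 Jak1 contacts lay in the first part of the gene. Rbm47, for an RNA-binding protein, had 1 and 5 contacts and none with an end near its start. Gse1 had 2 in each of these experiments, 1 in each near a listed start.

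The 4 contacts of 3110082I17Rik lay over one another. The gene is 101 kb long, and the contacts joined 70.4 with 87.1 kb in experiment 1 and 71.6 with 92.5 kb, 75.6 with 88.4 kb and 75.7 with 87.4 kb in experiment 3. Tns1 (tensin 1, of focal adhesions) had 6 contacts, Pde4d (a cAMP phosphodiesterase) had 5 and Zmiz1 (a transcriptional coactivator) had 4, all in experiment 3. In Tns1, 3 of the 6 ended at 108 to 115 kb from the start. In Pde4d, a gene of 1302 kb, the contacts were spread from 392.1 to 1068 kb.

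**Figure D5:**
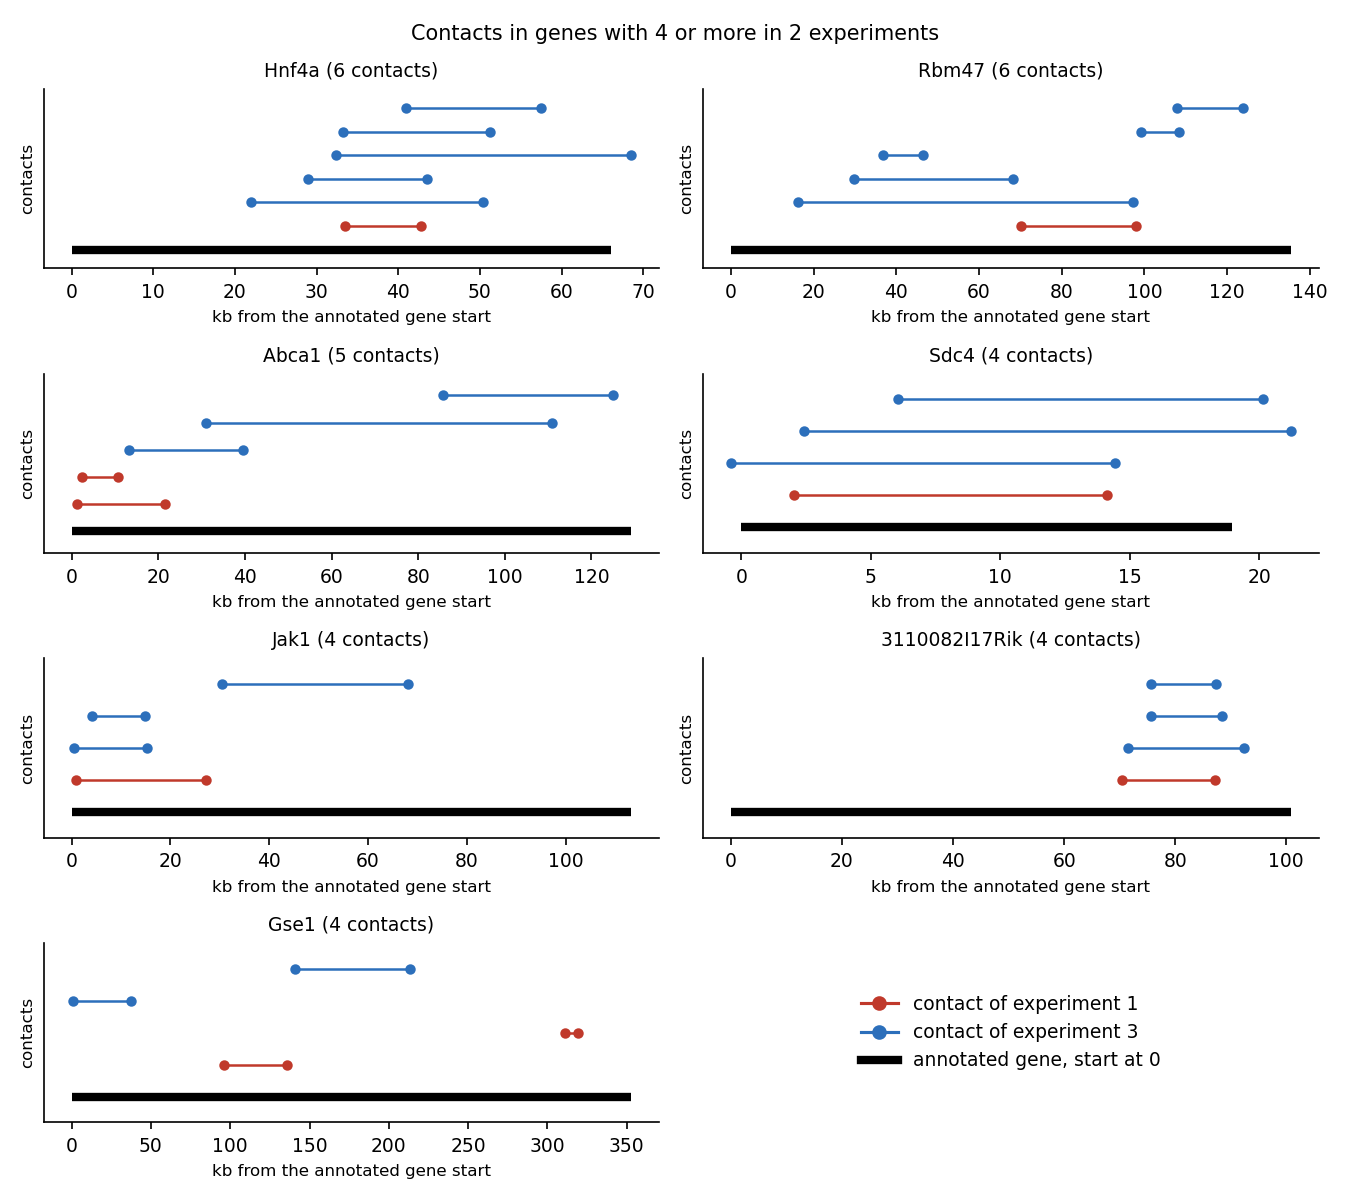
Contacts in the 7 genes with known strand, 4 or more contacts and contacts in 2 experiments; each line joins the ends of 1 contact, in kb from the annotated gene start, and the black bar is the gene. Contacts of 3110082I17Rik lie over one another at 70.4 to 92.5 kb, and those of Hnf4a begin 21.9 kb or more from its start.

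The genes with contacts in all 3 experiments differed in where they lay. In Adk (adenosine kinase, which clears adenosine), each experiment had 1 contact with an end near the printed start. It joined 21052991 with 21076803 in experiment 1, 21075083 with 21112924 in experiment 2 and 21075823 with 21105815 in experiment 3. The contact of experiment 1 therefore ran from that start to the start listed farther upstream, and the other two ran downstream. In Epas1 (the hypoxia factor HIF-2α), Rbfox2 (a splicing regulator), Magi1 (a junction scaffold) and Prkce (a protein kinase C), the contacts of different experiments joined different places.

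Among genes of metabolism and transport, Slc29a1 (the nucleoside transporter ENT1) had contacts of 0.761 to 10.1 kb in experiment 1 and 0.476 to 9.99 kb in experiment 3, and another of 6.61 to 15.1 kb in experiment 1. Pcx (pyruvate carboxylase, of gluconeogenesis) had 2 in experiment 3 that began 0.036 and 0.145 kb from the start and ended at 31.9 and 38.3 kb, and 1 in experiment 1 from 89.5 to 104 kb. Dgat2, for the last step of triglyceride synthesis, had 3 contacts of 8.91 to 20.3 kb.

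Among receptors and signalling genes, Lifr (the LIF receptor), Lrp1 (a lipoprotein receptor), Acvr1 (a BMP receptor) and Ece1 (endothelin-converting enzyme) had 3 contacts each. One end was near a listed start in 2, 1, 2 and 0 of these. All 3 contacts of Myh9 (non-muscle myosin) had an end at the start, from 1.01 to 1.81 kb, with partners at 20.5, 22.6 and 76.3 kb. In Nfix, a transcription factor gene, a contact of experiment 1 joined 18.3 with 30.7 kb and one of experiment 3 joined 14.8 with 30.4 kb. The remaining genes with 3 contacts in 2 experiments were Zfp395, Zfpm1, Hjurp, Fgd6, Ets1, Osbpl1a, St3gal3, Ctif, Atxn1 and Wwox.

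Repeated contacts were counted over all genes. In 87 genes there were 146 pairs of contacts from different experiments. Both ends lay within 2.5 kb of each other in 6 of these pairs, in 6 genes, and 1 end did in a further 39. All 6 joined experiments 1 and 3. They were in Sdc4, Slc29a1, St3gal3, Rai14, Slc25a44 and Pcdh1, the last 3 named after their values were seen. In St3gal3, a sialyltransferase gene of 203 kb, the contacts at chr4:117978157-117995951 and chr4:117978800-117995507 differed by 643 and 444 bp. In Slc29a1 they differed by 128 and 285 bp. In Rai14 contacts of 90.1 and 90.7 kb both had an end near the start. The number of such pairs expected by chance was not calculated. A contact nearly as long as its gene is limited in where its ends can lie. Slc25a44 is 14.6 kb long, with contacts of 10.8 and 12.8 kb. Pcdh1 is 26.1 kb long, with contacts of 22.6 and 24.5 kb. Rai14, of 150 kb, and St3gal3 left more room. The count of pairs therefore does not by itself show repetition beyond chance.

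Within one experiment there were 211 pairs of contacts in 109 genes, and both ends lay within 2.5 kb in 10. These were in 3110082I17Rik, Myh9 and Per2 and, named after their values were seen, in Acox2, Fbp1, Grb7, Mknk2, Ndel1, Pbld2 and Rusc2. Fbp1 is an enzyme of gluconeogenesis and Acox2 a peroxisomal oxidase of bile acid synthesis. The 10 pairs were not within 10 bp, since such PETs had been merged. The number expected by chance was not calculated for these pairs either. Grb7, of 8.54 kb, held contacts of 10.2 and 10.3 kb, longer than the gene itself. Ndel1, of 31.7 kb, held contacts of 29.9 and 32.7 kb. The longer genes 3110082I17Rik (101 kb) and Myh9 (81.6 kb) left more room.

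Of 20 genes of the circadian clock, 5 held contacts (25%, against 4.11% of all protein-coding genes and 5.95% of those over 8 kb). They were Per2 and Per3, which encode repressors of the clock, the activator Rora, and Tef and Hlf, for transcription factors that act at clock-controlled genes. The 6 contacts compare with 0.105 expected, a ratio of 57.0 (20.9 to 124), against 21.3 over all genes. Of the 6, 5 came from experiment 3, whose ratio over all genes was 45.9, inside this interval. Per2 had 2, both in experiment 3, at chr1:91446304-91456517 and chr1:91446428-91456073, with ends 124 and 444 bp apart. The other 4 genes had 1 each, in experiment 2 for Rora and in experiment 3 for the rest. The contact of Tef joined 2 of its listed starts. The median clock gene was 29.5 kb long, against 17.2 kb over all protein-coding genes, and 4.52% of genes of 25 to 50 kb held a contact. The shares were not compared at like length.

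Of 30 genes for liver transcription factors and nuclear receptors, 7 held 15 contacts (23.3% of genes, against 4.11% of all and 5.95% of those over 8 kb). The ratio to shuffled partners was 54.5 (30.5 to 89.9), against 21.3 over all genes. Of the 15, 12 came from experiment 3, whose ratio over all genes was 45.9. The median gene of this list was 54.3 kb long, against 17.2 kb over all genes. The share of genes with a contact rose with length, with 1.91% at 8 to 25 kb, 7.83% at 50 to 100 kb and 15.1% at 100 to 200 kb. The list was not compared with genes of like length. Beside Hnf4a with 6, Ppara, the fatty acid sensing receptor, had 3 and its partner Rxra had 2, all in experiment 3. Nr5a2, Ppard, Thrb and Stat3 had 1 each. In Nr5a2, Ppard and Stat3 the contact had an end near the start, and in Ppard it reached from the start to the gene's end.

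Of 40 abundant liver genes, 5 held 1 contact each (12.5% of genes, against 4.11% of all and 5.95% of those over 8 kb). The ratio to shuffled partners was 18.8 (6.10 to 43.8), near the 21.3 over all genes. They were Alb (albumin), Apoe (an apolipoprotein), Cps1 (the entry enzyme of the urea cycle), Plg (plasminogen) and Gc (the vitamin D carrier). The median gene of this list was 12.4 kb long and had a short-PET density of 23.4, against 1.41 over all genes. Genes over 8 kb in the highest of 5 density classes (2.98 and above) had a ratio of 86.5 (77.9 to 95.9), above this list's interval. The median densities of the clock and transcription factor lists, 4.21 and 6.17, also lay in that class. Their ratios of 57.0 and 54.5 were below 86.5, with intervals that held it. The shuffled expectation of that class was 4.23 contacts, a large part of it from the gene Sfi1, described at the end. The ratio of the class without Sfi1 would be higher and was not obtained, so the place of these lists against it stays uncertain. No comparison at like density was tested. The contact of Apoe ran from 1.28 kb before the start to 7.53 kb after it, past both boundaries of the gene of 5.07 kb.

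As a contrast, 3 of 20 very long genes of neurons and muscle held 1 contact each (15% of genes), namely Csmd3, Ctnna3 and Pcdh15. Shuffled pairing gave 2.53, a ratio of 1.18 (0.244 to 3.46), against 21.3 over all genes. The list's median length was 1564 kb, and all 226 genes over 500 kb had a ratio of 4.20 (3.23 to 5.37), with 20.4% of them holding a contact. The intervals of both ratios overlapped. Their contacts came from experiment 2 for Ctnna3 and Pcdh15 and from experiment 3 for Csmd3. The share of genes with a contact in this list was therefore similar to that of the abundant liver genes, while its ratio to shuffled pairing was lower. These ratios combine experiments with different ratios of their own, and no test was made between lists.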

How the data were processed

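Per the submitters' processing notes, Bowtie2 and mm10 were used; the sources used here give no version, filter or treatment of duplicates. The authors deposited 1 table of PETs with the position of each end (bp, other than a count or score) and the distance between ends, without a header. Its columns pool all libraries. Python 3.11.15, numpy 2.4.6, numba 0.67.0 and scipy 1.17.1 were used. RefSeq gene boundaries and starts (GRCm38.p6, the build named mm10) gave 21883 protein-coding genes, 17491 with a strand. Chromosome 18 had no listed starts, and some genes of other chromosomes, such as Mtss1 and Per2, had none either. Of the 253 contacts in genes without a strand, only 38 lay on chromosome 18.

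Expected numbers are exact sums over all pairings within an experiment and linker, without PETs at most 8 kb apart. For permuted offsets, they are sums over all offsets of PETs 8 to 100 kb apart within an experiment and chromosome. The calculation was tested on simulated data. Ratios have exact Poisson and shares exact Clopper-Pearson intervals (95%). Adjusted p-values are two-sided exact sign tests with Benjamini-Hochberg adjustment, at a threshold of 0.05.

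The members, gene lists and comparisons were chosen with earlier results of these data known. Named genes had at least 3 contacts in at least 2 experiments, were among the 15 with the most contacts or the largest excess, or were list genes with a contact; ties were ordered by the number of experiments and then by excess. Promoters were printed for the 5 genes of the first kind with the most contacts near a start. The comparison within the same gene and distance, the distance-weighted shares and the classes at 8 to 20 kb were added after the data were seen. Day and night, and crosslinking, were not tested.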

Additional observations from a re-analysis of the deposited data

How the results depend on the processing

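Of 130 alternative values for 23 results, 80 kept their call, stayed within counting error or, for gene counts, stayed within 1.5 times, 45 moved, 4 lost significance and 1 called value reversed. A value whose main interval held a ratio of 1 was not a call and could not reverse. A called ratio that fell below 1 was counted as reversed whatever its interval. No paired analysis was possible because the table names no library, so replicate numbers cannot be tied to PETs.

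Several results moved with the minimum distance. With 4 kb, the within-gene ratios to shuffled partners in experiments 1, 2 and 3 were 60.8, 10.2 and 80.5, the within-gene shares over shuffled pairings 1.89, 1.45 and 1.63, and 1750 genes held a contact. With 20 kb, the ratios were 18.9, 3.13 and 26.9, the shares 1.16 (experiment 1) and 1.15 (experiment 3), and 437 genes held one. The boundary share in experiment 1 was then 2.85 times that of shuffled pairings. With a maximum of 50 kb, the ratios were 49.9, 6.72 and 67.3. Without a margin around genes, experiment 3 had a ratio of 39.1 and a share of 1.18. Without experiment 3, 355 genes held a contact.

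The inward shares of experiments 1 and 3 lost significance at 20 kb (61.3% and 52.7%; exact sign tests, adjusted p = 0.192 and 0.568) and with a 1 kb window (61.0% and 53.7%; adjusted p = 0.0939 and 0.274). Both alternatives leave fewer contacts.

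The remaining values are shares divided by the expected share. With a 1 kb window, an end near a boundary was at 3.33 in experiment 2 and 2.56 in experiment 3, and both boundaries at 9.72 in experiment 2. With a 5 kb window, experiment 3 had 2.06 and 3.68 for these, 2.31 for starts and 3.403 for start to end. Against permuted offsets, in experiments 1, 2 and 3, the within-gene share was 1.14, 1.06 and 1.16, an end near a boundary 1.24, 1.22 and 1.27, and an end near a start 1.44, 1.16 and 1.31. Both boundaries had 1.92 in experiment 3, and start to end 1.78, 0.936 and 1.93. The within-gene share against distance-weighted pairings was 1.19, 1.09 and 1.10. Against pairs of the same gene and distance, an end near a start had 1.12, 1.06 and 1.30. Start to end had 0.868 in experiment 2, 1.11 in experiment 3 and 0.974 (0.527 to 1.62) in experiment 1. The last was counted as reversed, but its interval held 1, so the excess was no longer detectable rather than turned round. The cause of these moves was not tested beyond what each control holds fixed.

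Single contacts in most genes, pooled libraries, unknown strand for 253 contacts and counting intervals alone limit what can be read from any one gene.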

Other observations

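Most protein-coding genes held 0 contacts. Among the 899 genes with a contact, 1 held fewer than its shuffled expectation. This gene, Sfi1, had a shuffled expectation of 1.23 contacts, the highest of any gene with a contact, and held 1, in experiment 2. Its short-PET density was 17.3, 17.1 and 17.8 in experiments 1, 2 and 3, nearly alike, while that of Hnf4a was 25.8, 8.11 and 6.81 and that of Sdc4 38.8, 19.0 and 16.5. Sfi1 thus lies in the highest density class, whose shuffled expectation was 4.23 contacts in all. The ratio of 86.5 for that class therefore rests in large part on this gene.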
